A study of Mus musculus with 20 samples.

Results

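The mitochondrial ribosomal protein genes were taken as every protein-coding gene whose name begins with Mrpl or Mrps, which gave 78 of the 56748 genes listed in each of 2 count tables. By their names 49 encode proteins of the large subunit and 29 of the small subunit. Of the 78, 77 passed the minimum of 10 counts over the libraries of a table and were tested in both tables. The remaining member, Mrpl53, held 0 counts in all 20 libraries. In the tables it lies wholly within Gm42688, a protein-coding gene on the same strand, so a count of 0 does not show that it was silent.

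Poly A enriched RNA of mouse macrophages was sequenced in 2 experiments. The first held 12 libraries, 3 in each of 4 groups, of wildtype (WT) and iNOS knockout (iNOS KO) macrophages, either unstimulated or stimulated with LPS at 50 ng/mL and IFNγ at 30 ng/mL for 48 h. Its labels name bone marrow-derived macrophages (BMDM) of C57BL/6J mice aged 6 to 12 weeks, grown with M-CSF at 20 ng/mL, whereas the study's methods name RAW264.7 cells for this RNA, so these libraries are called BMDM-labelled here. In the methods the KO animals were B6.129P2-Nos2tm1Lau/J and marrow was pooled by genotype. The second held 8 libraries, 2 in each of 4 groups, of WT and Akr1a1 knockout (Akr1a1 KO) RAW264.7 cells, a mouse macrophage line, unstimulated or stimulated with LPS at 50 ng/mL and IFNγ at 10 ng/mL for 48 h. The KO cells came from single cells edited by CRISPR, and the 2 libraries of a group are described as independent clonal replicates. The titles of the unstimulated B libraries of both RAW264.7 genotypes say stimulated, but their treatment field and library names say unstimulated, which was followed here. In the methods the 3 libraries of an iNOS group are biological replicates. The labels do not tie libraries to separate animals or cultures, so p-values measure the spread between these libraries, which may be partly technical.

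Mitochondria carry their own ribosome, which translates the few proteins that mitochondrial DNA encodes, all of them subunits of the respiratory complexes and ATP synthase. Its ribosomal RNAs, mt-Rnr1 and mt-Rnr2, are transcribed from mitochondrial DNA, while every one of its proteins is encoded in the nucleus, made in the cytosol and imported. The small subunit binds the messenger RNA and decodes it. The large subunit joins the amino acids and passes the new chain through an exit tunnel to the inner membrane. Some of the proteins have bacterial counterparts and others exist only in mitochondria. Macrophages stimulated by LPS and IFNγ induce iNOS, whose product nitric oxide inhibits respiration, and Akr1a1 reduces S-nitroso-CoA.

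The promoters of 5 members are shown. Mrpl52, Mrpl27 and Mrpl45 are the 3 members that rose most on stimulation in WT cells. Mrps27 and Mrpl22 are 2 of many that fell there and were higher in stimulated iNOS KO cells, and no fixed rule set the choice of these 2. Each line gives bases 100 to 26 before the RefSeq gene start (75 bases, GRCm38.p6, plus strand, 5′ to 3′). Capitals mark a match to the ETS motif CCGGAAG or the NRF1 motif GCATGCGC on either strand. Mrps27 and Mrpl22 both hold an ETS match, whereas the promoter of Mrpl23, which fell more in WT and is not shown, holds neither motif.
Mrpl52, chr14:54426809-54426883: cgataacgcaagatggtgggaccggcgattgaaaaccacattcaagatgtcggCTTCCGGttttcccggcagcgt
Mrpl27, chr11:94653691-94653765: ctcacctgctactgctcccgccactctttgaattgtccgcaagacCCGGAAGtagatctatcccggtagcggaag
Mrpl45, chr11:97315616-97315690: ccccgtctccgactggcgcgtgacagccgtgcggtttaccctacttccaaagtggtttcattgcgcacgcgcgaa
Mrps27, chr13:99344686-99344760: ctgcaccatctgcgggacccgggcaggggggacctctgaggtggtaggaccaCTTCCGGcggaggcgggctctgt
Mrpl22, chr11:58171564-58171638: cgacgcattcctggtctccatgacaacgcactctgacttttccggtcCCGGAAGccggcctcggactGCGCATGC

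The ETS match began 47 bases before the start in Mrpl52, 55 in Mrpl27, 48 in Mrps27 and 53 in Mrpl22. Mrpl22 also held an NRF1 match that began 33 bases before its start, and the Mrpl45 stretch held neither motif. RefSeq promoters of 300 bases (250 before to 50 after the start) were at hand for 69 of the 78 members. Searched on both strands, 26 of these 69 genes (37.7%) held CCGGAAG, against 9.93% of all 27025 genes with a promoter. The YY1 motif AAGATGGC was in 12 members (17.4%, against 3.19%), and GCATGCGC in 8 (11.6%, against 3.05%). The E-box CACGTG was in 5 (7.25%, against 8.09%) and the E2F motif, TTTGGCGC or TTTCCCGC, in 2 (2.9%, against 1.8%). The median GC content was 58.7% in the member promoters and 52.7% in all. On stimulation of BMDM-labelled WT cells 19 of 25 tested members with CCGGAAG were lower and 3 higher, with a median log2 fold change of -0.45. Of the 31 members with none of the ETS, YY1 and NRF1 letters, 23 were lower and 2 higher, with a median of -0.47. No test was made between these groups, and a match of letters is not a binding site.

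Library totals ran from 15072109 to 18878107 counts in the BMDM-labelled table and from 11876719 to 44583327 counts in the RAW264.7 table. The members took between 0.20% and 0.37% of all counts in the BMDM-labelled libraries. Nos2, the gene of iNOS, rose in WT cells from 1.25 to 1.53 CPM (the CPM unit being the count scaled by the library size after TMM, edgeR's correction for composition) up to 10370 to 11530 CPM, and in the iNOS KO libraries it went from 0 to between 871 and 912 CPM. Akr1a1 was at 206 and 21.9 CPM in the unstimulated Akr1a1 KO libraries, against 427 and 488 CPM in WT, and at 370 and 212 CPM in the stimulated ones, against 576 and 675 CPM, so transcript remained in the lines labelled KO. The iNOS KO stimulated library B stood apart from its group (chi-square per degree of freedom over genes of 28.8 and 36.8 against A and C, and 6.6 between A and C), and calls without it are given beside the counts of this table.

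Averaged over all libraries of an experiment, stimulated and KO ones included, the members spanned a wide range of levels. Per length, Mrpl52 was highest over the BMDM-labelled libraries with a mean of 89.1 RPKM (CPM per kilobase of gene length). Mrpl12, a protein of the large subunit's stalk, followed at 74.0 RPKM and Mrps21 at 63.6 RPKM. The lowest were Mrpl33 at 3.25 RPKM, Mrpl48 at 2.84 RPKM and Mrps35 at 2.83 RPKM, and the median member was at 13.7 RPKM. Over the RAW264.7 libraries Mrpl12 led at 63.8 RPKM, then Mrps21 at 48.8 RPKM and Mrpl45 at 46.9 RPKM, around a median of 12.1 RPKM. Some places in these orders came from stimulated libraries. In unstimulated BMDM-labelled WT cells Mrpl52 was at 66.4 CPM over 1109 bases and Mrpl12 at 140.4 CPM over 1532 bases, so Mrpl12 stood above it. Mrpl45 was at 81.2 CPM in unstimulated and 159.8 CPM in stimulated RAW264.7 WT cells. In unstimulated WT cells the order of levels was close in the 2 tables, with Pearson's r of 0.93 and Spearman's rho of 0.92 across the 77 genes. These are correlations across genes that share one set of gene lengths, and genes are not replicates.

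The first comparison asked what LPS and IFNγ did to the members in BMDM-labelled WT cells. Of the 77, 54 were lower and 5 were higher after stimulation (edgeR's quasi-likelihood test, adjusted p under 0.05), with a median log2 fold change of -0.45. Of all 18691 genes tested 60.9% were called, 28.5% as lower and 32.4% as higher, and their median was 0.07. Without iNOS KO stimulated library B 56 were lower and 6 higher. That library is in neither group compared and acts through the shared fit (dispersion, scaling and count minimum). The share called among all 13208 protein-coding genes was 71.2%, close to the 76.6% of the members. With a log2 fold change over 1 in size also required, 10 members were left, against 35.4% of all genes. Summed over the members, unstimulated WT libraries held 3170 to 3305 CPM and stimulated ones 2303 to 2583 CPM, and these ranges did not overlap. In bulk RNA a loss of cells of one kind and less RNA per cell cannot be told apart.

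**Figure D1:**
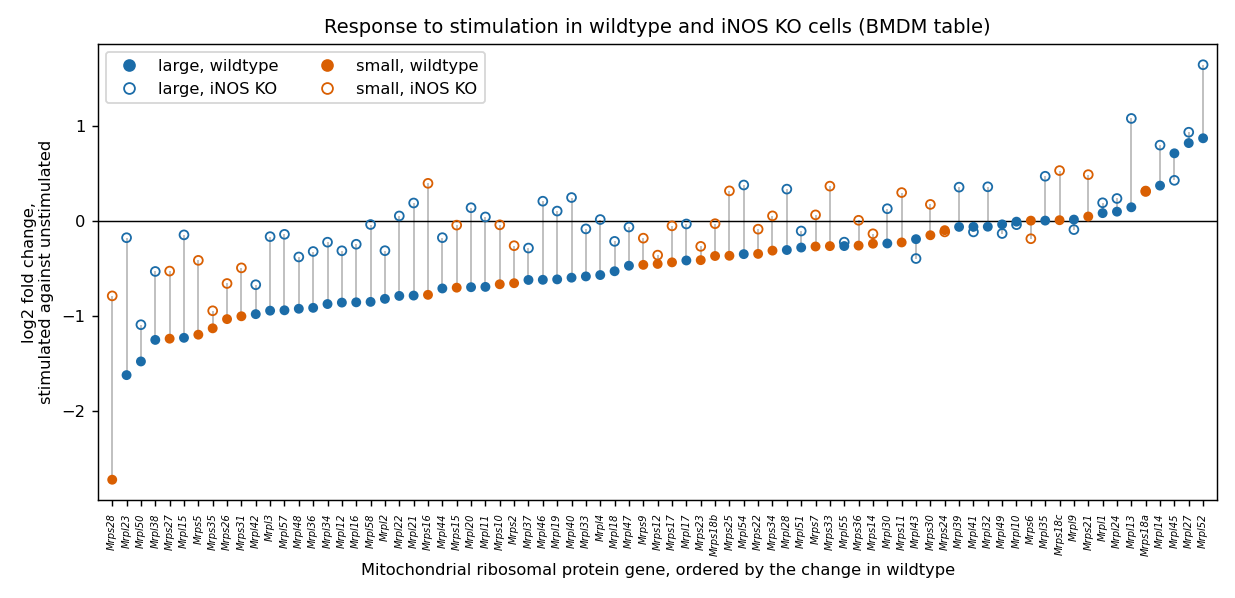
Log2 fold change on stimulation of each tested member in BMDM-labelled WT and iNOS KO cells, with large and small subunit genes drawn apart and 1 point per gene. In WT the points lie mostly below 0 with a median of -0.45, and in iNOS KO they lie around a median of -0.05.

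Mrps28, a small subunit protein, fell most. Its level in WT cells was 25.6, 27.1 and 28.2 CPM unstimulated and 3.53, 5.2 and 3.47 CPM stimulated, and in iNOS KO cells 25.4, 26 and 26.2 CPM unstimulated and 15.6, 15.3 and 14.1 CPM stimulated. The stimulated WT libraries lay below all others, and the stimulated KO libraries lay between. The log2 fold change on stimulation was -2.73 ± 0.127 (SE, adjusted p = 5.7e-12) in WT and -0.79 ± 0.107 (adjusted p = 9e-06) in iNOS KO.

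Mrpl23 sits at the exit of the nascent chain tunnel of the large subunit. It went from 64.2, 58.6 and 60.4 CPM to 18.6, 18.4 and 22.5 CPM in WT, a log2 fold change of -1.62 ± 0.0887 (adjusted p = 4.9e-11). In iNOS KO cells it was at 46.3, 46.8 and 48.5 CPM unstimulated and 42, 44.3 and 39.1 CPM stimulated (-0.18 ± 0.0841, adjusted p = 0.093). Mrpl15, conserved from bacteria, behaved in the same manner, from 47.9, 49.0 and 55.2 CPM to 20.8, 20.2 and 23.8 CPM in WT (-1.23 ± 0.0831) and from 48.7, 48.6 and 47.3 CPM to 44.4, 43.0 and 43.3 CPM in KO (-0.15 ± 0.0791, adjusted p = 0.14). For both genes the stimulated WT libraries were well under the other 9.

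Mrpl50, found only in mitochondrial ribosomes, fell in both genotypes. It went from 31.1, 33.1 and 28.3 CPM to 11.7, 11.3 and 10.2 CPM in WT (-1.48 ± 0.146) and from 36.9, 33.5 and 37.2 CPM to 18.9, 11.8 and 19.6 CPM in KO (-1.09 ± 0.139). The lowest of the stimulated KO values, that of library B, lies just above the highest stimulated WT value. Mrps35, a mitochondria-specific protein of the small subunit, went from 34.8, 33.5 and 31.3 CPM to 15.4, 16.0 and 14.1 CPM in WT (-1.13 ± 0.0909) and from 31.3, 34.3 and 32.0 CPM to 18.2, 17.1 and 15.5 CPM in KO (-0.95 ± 0.0894). The stimulated levels of the genotypes overlapped here.

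The other 5 of the 10 largest falls in WT were smaller in KO. Mrpl38, of the central protuberance, fell by 1.25 on the log2 scale in WT and by 0.53 in KO. Mrps27, a pentatricopeptide repeat protein, fell by 1.24 and 0.53. Mrps5, a conserved protein of the mRNA channel, fell by 1.2 in WT and by 0.41 in KO, Mrps26 fell by 1.03 and 0.66, and Mrps31 fell by 1.00 and 0.49. All of these passed the test in both genotypes.

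Against this trend 5 members rose in WT cells. Mrpl52 was the highest member per length over all BMDM-labelled libraries. It went from 68.9, 60.5 and 69.7 CPM to 106, 125 and 134 CPM in WT (0.87 ± 0.0827, adjusted p = 7e-08) and from 49.7, 50.9 and 49.8 CPM to 153, 158 and 160 CPM in KO (1.65 ± 0.0839, adjusted p = 3.7e-11). Mrpl27, whose bacterial counterpart reaches toward the peptidyl transferase centre, went from 33.8, 33.3 and 37.3 CPM to 57.5, 62.1 and 64.8 CPM in WT (0.82 ± 0.083) and from 31.9, 33.5 and 31.7 CPM to 59.5, 68.5 and 57.8 CPM in KO (0.94 ± 0.0829). These 2 genes rose in each genotype with no overlap between states. With library totals alone the WT values shrank to 0.41 for Mrpl52 and 0.36 for Mrpl27, and to 0.25 for Mrpl45, and all of these were still called.

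Mrpl45 anchors the ribosome to the inner membrane at the tunnel exit. It went from 62.9, 59.5 and 64.3 CPM to 93.5, 109 and 104 CPM in WT (0.71 ± 0.0789) and from 58.1, 61.1 and 59.2 CPM to 75.4, 88.4 and 76.5 CPM in KO (0.43 ± 0.0789). Mrpl14, a conserved protein at the face that meets the small subunit, rose by 0.37 ± 0.0972 in WT (adjusted p = 0.0031) and by 0.80 ± 0.0973 in KO. Mrps18a, which carries a small subunit name although its protein was placed in the large subunit by structures, rose by 0.32 ± 0.0843 and 0.31 ± 0.0842. The calls of Mrpl14 and Mrps18a in WT rest on the scaling, since with library totals alone both values were below 0 (-0.09 and -0.14).

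In iNOS KO cells stimulation moved the members in both directions. There 19 were higher and 20 lower, with a median log2 fold change of -0.05, against 51.9% of all genes called (27.3% higher and 24.6% lower) and a median of 0.00. All members are protein-coding. With the 13208 protein-coding genes alone in the fit 8472 of them were called, beside 44 members. With the fold limit 3 members were left, against 22.8% of all genes. The summed level was 3009 to 3110 CPM without stimulation and 3045 to 3292 CPM with it, so the ranges overlapped. The split depends on library B of the stimulated KO group, since without it 29 members were lower and 19 higher, with a median of -0.11. It also depends on the scaling, since with library totals and no TMM factors 4 were higher and 56 lower, while the median over all genes moved from 0.00 to -0.41 and that of the members to -0.47.

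**Figure D2:**
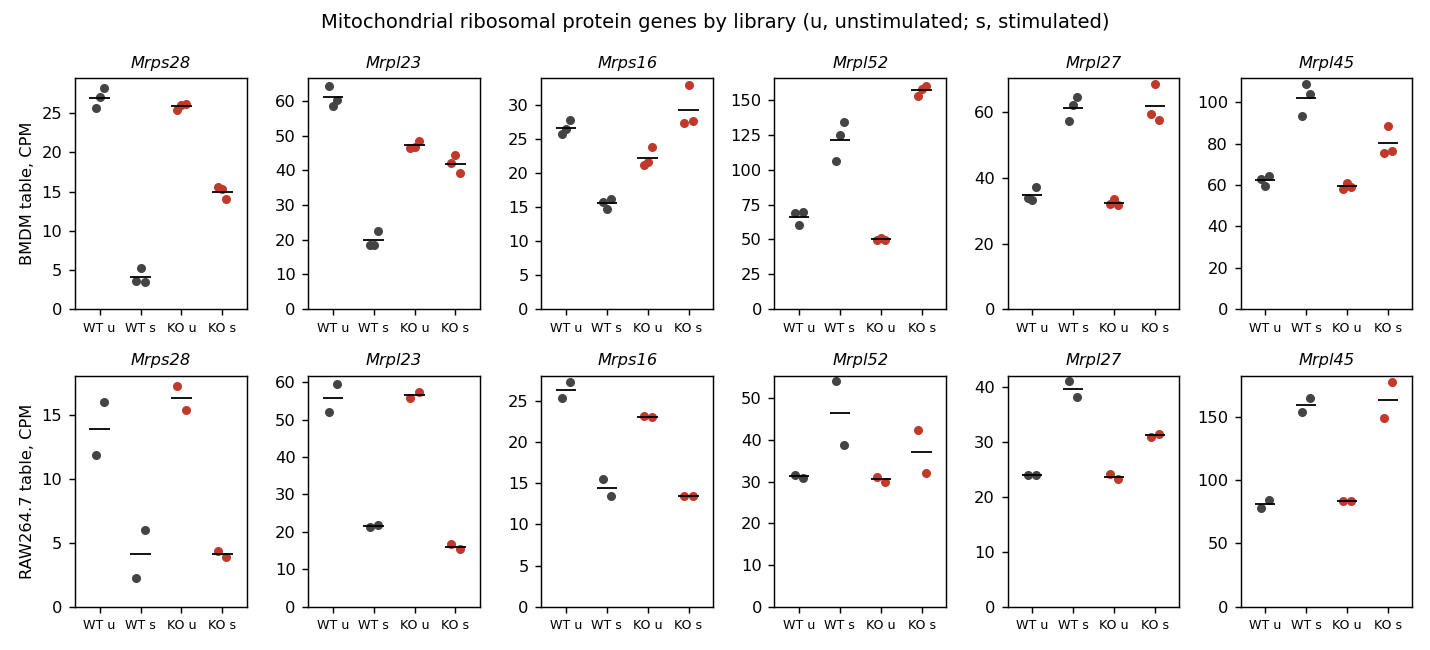
CPM of Mrps28, Mrpl23, Mrps16, Mrpl52, Mrpl27 and Mrpl45 in every library of both tables, 1 point per library and 1 column per group. Mrps28 in stimulated BMDM-labelled cells is at 3.47 to 5.2 CPM in WT and 14.1 to 15.6 CPM in iNOS KO, while Mrpl45 is higher after stimulation in both genotypes of both tables.

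Set side by side, 5 members were higher on stimulation in both genotypes, 19 were lower in both, and 29 were lower in WT but not called in KO. A further 6 were lower in WT and higher in KO, 8 were higher in KO without a call in WT, 1 was lower in KO alone, and 9 were called in neither. The 6 with opposite calls were Mrpl28, Mrpl40, Mrpl54, Mrps16, Mrps25 and Mrps33. Mrps16, a conserved small subunit protein, was the clearest, at 25.7, 26.5 and 27.8 CPM unstimulated and 15.8, 14.7 and 16.2 CPM stimulated in WT, and at 21.2, 21.7 and 23.8 CPM unstimulated and 27.4, 33.0 and 27.6 CPM stimulated in KO. The fall in WT was -0.78 ± 0.0954 and the rise in KO was 0.40 ± 0.0913. With library totals alone the KO values of these 6 ran from -0.17 to -0.02 and none was called. Mrpl13, a conserved large subunit protein, had the second largest rise in KO, from 42.2, 41.4 and 41.7 CPM to 91.6, 78.5 and 94.8 CPM (1.08 ± 0.0778), against 48.5, 47.0 and 48.7 CPM and 52.1, 56.6 and 50.6 CPM in WT (0.15 ± 0.0784, adjusted p = 0.12). Mrpl13 overlaps Mtbp in the tables on the other strand, and the strand setting of the counting is not given in the sources used here.

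The second comparison asked how iNOS KO differed from WT. In unstimulated cells 2 members were lower and none was higher (5.98% of all genes called, 1.88% as higher and 4.09% as lower), with a median of -0.07. With the fold limit there were none, against 1.66% of all genes. Mrpl52 was at 49.7 to 50.9 CPM in KO against 60.5 to 69.7 CPM in WT (-0.41 ± 0.0833, adjusted p = 0.0059), and Mrpl23 at 46.3 to 48.5 CPM against 58.6 to 64.2 CPM (-0.37 ± 0.0826, adjusted p = 0.01). At an unadjusted p under 0.05 there were 11. The number called depended on single libraries. It ran from 1 without WT unstimulated library A or iNOS KO unstimulated library A to 9 without iNOS KO stimulated library B. The last is in neither group compared and acts through the shared fit. Mrpl23 lost its call without either of the first 2 (-0.33 and -0.36).

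In stimulated cells 52 members were higher in iNOS KO than in WT and 2 were lower, with a median of 0.41. Of all genes 48.4% were called, 24.2% as higher, with a median of -0.04. With the 13208 protein-coding genes alone in the fit 8038 of them were called, beside 56 members. With the fold limit 3 members were left, against 19.6% of all genes. Without KO stimulated library B 53 were higher and 5 lower, with a median of 0.36. In 54 members each of the 3 KO libraries lay above each of the 3 WT libraries, against 25.8% of all genes. Both this comparison and that of stimulation in WT use the 3 stimulated WT libraries, so one cannot serve as support for the other.

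Mrps28 differed most between the stimulated genotypes, by 1.88 ± 0.132 (adjusted p = 3.4e-09), followed by Mrpl23 at 1.08 ± 0.0896 and Mrpl15 at 1.01 ± 0.0838. Mrpl21 was at 15.5, 17.0 and 19.3 CPM in stimulated WT and 33.1, 33.2 and 34.2 CPM in stimulated KO (0.96 ± 0.0933). Mrps16 differed by 0.91 ± 0.0958. Mrpl22, whose protein lines the exit tunnel and whose promoter is shown above with both motifs, was at 8.93, 12.5 and 12.5 CPM in WT and 18.7, 21.1 and 20.6 CPM in KO (0.83 ± 0.117).

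Mrpl46 (0.80 ± 0.102), Mrpl3 (0.78 ± 0.0618), Mrps5 (0.76 ± 0.08) and Mrpl40 (0.76 ± 0.0917) completed the 10 with the highest values. Mrpl46 and Mrpl40 belong to the central protuberance, and Mrpl3 is a conserved protein near the core of the large subunit. Mrpl3 was precise, with 44.9, 47.2 and 47.7 CPM in stimulated WT and 79.8, 81.6 and 78.9 CPM in stimulated KO. Mrpl46 shares bases with Mrps11, and Mrpl21 with Ighmbp2, so their counts are less certain. The same limit holds for other members, since 24 overlap a tested protein-coding gene, 21 on the opposite strand and 3 on the same strand. Among these are Mrpl14, Mrpl27, Mrps25 and Mrpl48. The 2 lower in KO were Mrpl45 (-0.35 ± 0.0785, adjusted p = 0.0013) and Mrps6 (-0.24 ± 0.086, adjusted p = 0.03), a small subunit protein whose value on stimulation of WT cells was 0.00 ± 0.0842. The call of Mrps6 was lost without WT stimulated library C (-0.18) and without KO stimulated library A or C (-0.24 each). The difference of Mrpl27 between the stimulated genotypes was within the spread (0.01 ± 0.0816, adjusted p = 0.95).

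The interaction of genotype and stimulation, which tests whether the response itself differed, was called for 51 members, all with a response shifted upward in iNOS KO. Of all genes 35.4% were called, 20% in that direction and 15.4% in the other, and with the fold limit 4 members were left, against 15% of all genes. With the 13208 protein-coding genes alone in the fit 6095 of them were called, beside 53 members. The median over the members was 0.44. Without KO stimulated library B 54 were shifted upward and 1 downward, with a median of 0.46. The largest were Mrps28 (1.94 ± 0.168), Mrpl23 (1.45 ± 0.122), Mrps16 (1.17 ± 0.132), Mrpl15 (1.08 ± 0.115) and Mrpl21 (0.98 ± 0.128). Mrpl52 rose in both genotypes, and its interaction was 0.77 ± 0.116 (adjusted p = 5e-05). For Mrpl27 (0.11 ± 0.117), Mrpl45 (-0.28 ± 0.111, adjusted p = 0.058), Mrps35 (0.19 ± 0.127) and Mrpl50 (0.39 ± 0.201, adjusted p = 0.16) no difference in response was called.

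**Figure D3:**
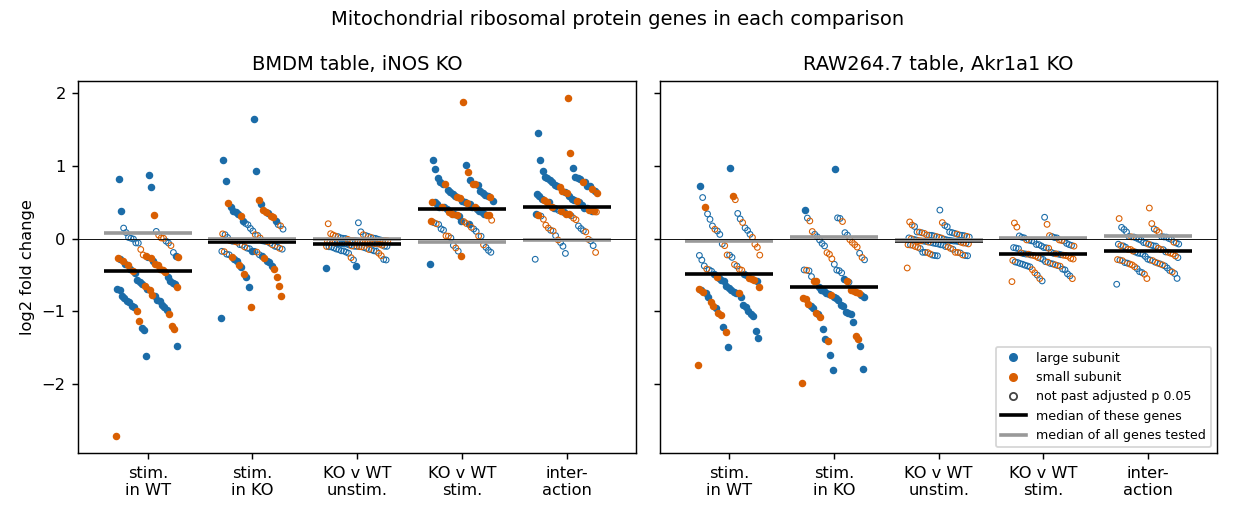
Log2 fold changes of the 77 tested members in the comparisons of both tables, 1 point per gene, with large and small subunit genes marked by colour. The medians are -0.45 and -0.05 for stimulation in BMDM-labelled WT and iNOS KO cells, 0.41 for iNOS KO against WT when stimulated, and -0.49 and -0.67 for stimulation in WT and Akr1a1 KO RAW264.7 cells.

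The subunits were compared next, by gene name. Of the 29 genes named for the small subunit, Mrps18a and Mrps30 belong to the large subunit in structures, and Mrps36 is ribosomal in name alone, its protein being part of the oxoglutarate dehydrogenase complex. In BMDM-labelled WT cells 32 of 48 large subunit genes were lower and 4 higher (median -0.58), against 22 of 29 small subunit genes lower and 1 higher (median -0.37). By structure 32 of 50 large subunit genes were lower and 5 higher (median -0.55), and 21 of 26 small subunit genes were lower and none higher (median -0.42). In iNOS KO cells 12 large subunit genes were higher and 11 lower, and 7 small subunit genes were higher and 9 lower, with medians of -0.05 for both. Between the stimulated genotypes 34 large and 18 small subunit genes were higher in KO (medians 0.43 and 0.33).

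Grouped by conservation, 20 of 30 conserved and 12 of 18 mitochondria-specific large subunit genes were lower on stimulation in WT. Of the small subunit genes 11 of 16 conserved and all 10 mitochondria-specific ones were lower. The large subunit classes do not cover every gene placed in that subunit by structure. In iNOS KO cells 5 and 6 of the large and 4 and 5 of the small subunit genes of these classes were lower.

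The summed levels moved otherwise than the medians. The ratio of summed CPM of large to small subunit genes was 2.03 to 2.07 in unstimulated and 2.18 to 2.24 in stimulated WT libraries, and 1.96 to 1.99 and 2.25 to 2.26 in iNOS KO libraries. The ranges did not overlap in either genotype. The change in the log2 ratio was 0.11 in WT and 0.18 in KO, and 0.20 and 0.23 with the genes assigned to subunits by structure. A sum gives more weight to members with higher levels. Mrpl52, Mrpl27 and Mrpl45, which rose, are all of the large subunit, but their part in the ratio was not tested. With each gene weighted equally (mean log2 level in place of sums, chosen after seeing the data) the changes were 0.07 and 0.12. In RAW264.7 cells the ratio was 1.98 and 2.05 unstimulated and 2.10 and 2.07 stimulated in WT, and 2.09 and 2.06 and then 2.14 and 2.17 in Akr1a1 KO, changes of 0.05 in each genotype. With equal weighting they were 0.00522 in WT and -0.00503 in KO, and by structural assignment 0.0932 and 0.0953. The WT change was 0.0194 without WT unstimulated library A and 0.0747 without WT unstimulated library B. With 3 or 2 libraries a group an exact permutation test cannot go below p = 0.10, so none was made.

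**Figure D4:**
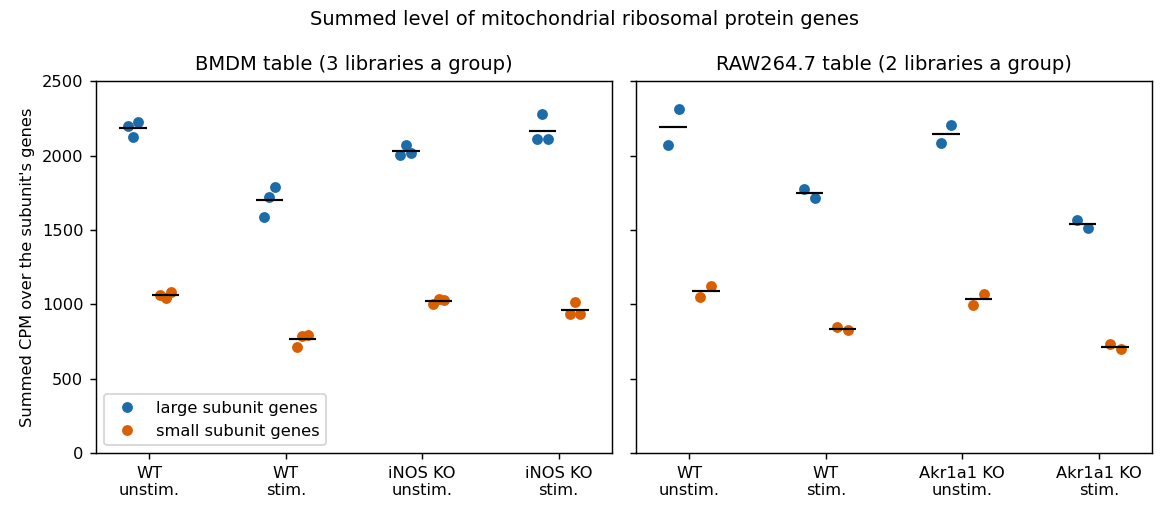
Summed CPM of the large and the small subunit genes in every library of both tables, 1 point per library and 1 column per group. Among the BMDM-labelled libraries both sums are lowest in stimulated WT (1589 to 1786 CPM large, 714 to 796 CPM small), whereas in RAW264.7 cells both genotypes are lower when stimulated.

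The third comparison was stimulation of RAW264.7 cells. In WT cells 39 members were lower and 4 higher (37.7% of all 19569 genes called, 18.5% as higher and 19.2% as lower), with a median log2 fold change of -0.49 against -0.03 over all genes. In Akr1a1 KO cells 43 were lower and 2 higher (39.2% of all genes called, 19.8% as higher and 19.4% as lower), with a median of -0.67 against 0.02. With the 13353 protein-coding genes alone in the fit 6678 of them and 46 members were called in WT. In KO these numbers were 6899 and 51. With the fold limit 10 members were left in WT and 17 in KO, against 24.4% and 26.2% of all genes. The summed level of the members was 3121 and 3439 CPM in unstimulated and 2625 and 2542 CPM in stimulated WT libraries, and 3080 and 3274 CPM and then 2299 and 2212 CPM in KO. Without WT unstimulated library B the number of calls in WT fell to 28.

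Mrps28 again had the largest fall, from 11.9 and 16.0 CPM to 2.23 and 6.02 CPM in WT (-1.75 ± 0.407, adjusted p = 0.01) and from 17.3 and 15.4 CPM to 4.35 and 3.89 CPM in KO (-1.99 ± 0.411, adjusted p = 0.0053). Its WT value rests on few libraries that differ widely, the call was lost without WT unstimulated library B (-1.51), and the value shrank to -1.15 without WT stimulated library A. Mrpl36, a small conserved protein of the large subunit, went from 48.2 and 50.2 CPM to 18.4 and 16.5 CPM in WT (-1.50 ± 0.138, adjusted p = 8.4e-05) and from 46.4 and 49.6 CPM to 14.5 and 13.2 CPM in KO (-1.79 ± 0.139). Mrpl36 overlaps Ndufs6 in the tables. Mrpl23 went from 51.9 and 59.4 CPM to 21.3 and 21.8 CPM in WT (-1.37 ± 0.132) and from 55.7 and 57.3 CPM to 16.7 and 15.4 CPM in KO (-1.81 ± 0.135).

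Mrps6 went from 27.6 and 21.7 CPM to 8.55 and 11.5 CPM in WT (-1.29 ± 0.221) and from 24.9 and 25.4 CPM to 11.1 and 8.79 CPM in KO (-1.34 ± 0.221), beside a value of 0.00 in BMDM-labelled WT cells. Mrps6 overlaps Slc5a3 on the same strand over 29152 bases in the tables, and Slc5a3 held 20551 counts in the RAW264.7 table against 3060 of Mrps6, so the counts of Mrps6 are uncertain. Mrpl34, conserved in bacteria, fell by 1.28 in WT and by 1.25 in KO. All of these separated the states without overlap.

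Mrpl45 rose in RAW264.7 cells as well, from 78.1 and 84.3 CPM to 154 and 165 CPM in WT (0.98 ± 0.124, adjusted p = 0.00046) and from 83.5 and 83.6 CPM to 149 and 177 CPM in KO (0.96 ± 0.124). Mrpl27 rose from 24 and 24 CPM to 41.1 and 38.2 CPM in WT (0.72 ± 0.129) and from 24.1 and 23.3 CPM to 31.0 and 31.5 CPM in KO (0.40 ± 0.129, adjusted p = 0.039). This call in KO was lost without any one of the unstimulated libraries or of the KO stimulated libraries (0.38 to 0.42). Mrps18b, of the small subunit, rose in WT from 19.0 and 20.3 CPM to 31.5 and 27.7 CPM (0.59 ± 0.161, adjusted p = 0.021), and Mrps18a rose by 0.44 ± 0.118 (adjusted p = 0.019). The calls of Mrps18a and Mrps18b were lost without either WT unstimulated library. Mrpl52 had a value of 0.57 ± 0.195 in WT and did not pass the test (adjusted p = 0.051).

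The fourth comparison was Akr1a1 KO against WT. No member passed edgeR's test in unstimulated cells (0.583% of all genes called, 0.23% as higher and 0.353% as lower, and 0.537% with the fold limit). None passed in stimulated cells (0.286% called, 0.0869% as higher and 0.199% as lower, and 0.276% with the fold limit), nor in the interaction (0.0204% called, 0.00511% as higher and 0.0153% as lower). At an unadjusted p under 0.05 there were 1, 17 and 4 members. DESeq2's Wald test called 1 of them in stimulated cells (Mrpl51) and none in the other comparisons. In unstimulated cells the lowest p-values were those of Mrps9 (-0.40 ± 0.152, adjusted p = 0.52), Mrpl12 (-0.23 ± 0.124) and Mrps26 (-0.21 ± 0.117).

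In stimulated cells the values leaned one way without passing. They were below 0 for 66 of the 77, with a median of -0.21 against 0.01 over all genes, and in 44 members both KO libraries lay below both WT libraries, against 18.6% of all genes. Other lists leaned the same way, with 70 of 77 cytosolic ribosomal protein genes (median -0.19) and 34 of 38 nuclear complex I genes (median -0.16) below 0. Mrpl51, a mitochondria-specific large subunit protein, was at 59.8 and 61.5 CPM in WT and 44.0 and 41.0 CPM in KO (-0.51 ± 0.116, adjusted p = 0.17). Mrpl48, of the central protuberance, was at 17.3 and 19.6 CPM against 12.3 and 12.4 CPM (-0.58 ± 0.146, adjusted p = 0.2). Mrps9, a conserved small subunit protein, was at 70.4 and 59.4 CPM against 43.7 and 42.4 CPM (-0.59 ± 0.154, adjusted p = 0.21). In the interaction the lowest p-values were those of Mrpl48 (-0.63 ± 0.203, adjusted p = 0.87), Mrpl51 (-0.40 ± 0.163) and Mrpl23 (-0.44 ± 0.185). The common dispersion was 0.0522 here against 0.00845 in the BMDM-labelled table, so a difference of a given size had a wider error, and these p-values do not show that the genotypes were alike.

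The response of WT cells to stimulation was then set side by side in the 2 experiments, which share no library. By their labels these differ in the cells and in the IFNγ dose, though the methods name RAW264.7 cells for both. Of the 54 members lower in BMDM-labelled and the 39 lower in RAW264.7 cells, 35 were in both, 64.8% of the first and 89.7% of the second list. Over all 17398 genes tested in both tables these shares were 55.9% and 79.2%. Of the 5 and 4 higher members 3 were in both (Mrpl45, Mrpl27 and Mrps18a), 60% and 75%. Only Mrps18b was called in opposite directions, -0.37 ± 0.0861 in BMDM-labelled cells and 0.59 ± 0.161 in RAW264.7 cells. The fold changes had a Pearson's r of 0.69 and a Spearman's rho of 0.62 across the 77 members, and 0.70 and 0.64 across all genes tested in both.

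**Figure D5:**
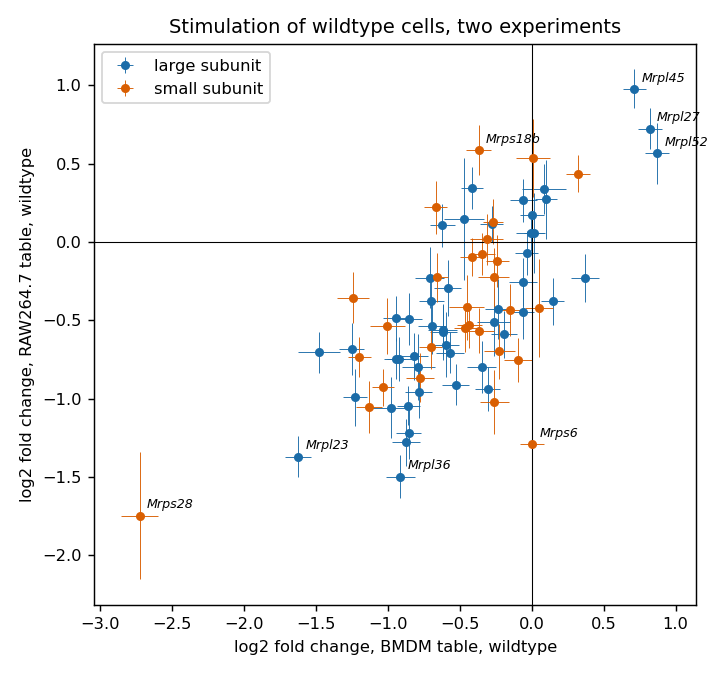
Log2 fold change on stimulation in WT cells of the BMDM-labelled table (horizontal axis) against that of the RAW264.7 table (vertical axis), 1 point per member, with the outermost members named. Mrps28 and Mrpl23 lie among the lowest in both, Mrpl45 and Mrpl27 among the highest in both, and Mrps18b lies on opposite sides of 0.

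The other genes of mitochondrial translation were read beside the members in BMDM-labelled cells. Of 5 mitoribosomal proteins with other names 3 were lower and 1 higher on stimulation in WT. Gadd45gip1, whose protein is part of the large subunit, fell by 1.74 in WT, and its level in stimulated KO was 1.48 higher on the log2 scale than in stimulated WT. Dap3, of the small subunit, rose by 0.25. Of 15 translation factors 8 were lower and none higher in WT, among them the elongation factors Tsfm (-1.62), Gfm1 (-1.47) and Tufm (-0.71). Tsfm and Gfm1 were 0.97 and 0.82 higher in stimulated KO than in stimulated WT, whereas Guf1, a back-translocase, fell by 1.77 in WT with a difference between stimulated genotypes of 0.09 (adjusted p = 0.68). Mtif3, an initiation factor, was 0.76 lower in stimulated KO.

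Of 24 assembly factors 16 were lower and 3 higher in WT. The fall was largest of those named in Gtpbp10 (-2.15), a GTPase of large subunit maturation, and Rcc1l fell by 1.77. Mrm1, which methylates the large ribosomal RNA, rose by 1.62 in WT and was 1.92 lower in stimulated KO, and Malsu1, which binds Mrpl14 during assembly, rose by 0.73 and was 0.76 lower in stimulated KO. Of 20 mitochondrial tRNA synthetases 15 were lower and 1 higher in WT (median -0.96), and 18 were lower and 2 higher in KO (median -0.68). Mars2 fell by 2.32 in WT, Pars2 by 2.05 and Cars2 by 1.86.

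In RAW264.7 WT cells 13 of the 20 synthetases were lower and none higher (median -0.84), 6 of the 15 translation factors were lower and 1 higher, and 8 of the 24 assembly factors were lower and 3 higher. Tsfm fell by 1.12 there, Guf1 by 1.99, Mars2 by 1.98 and Cars2 by 1.88.

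Of 4 genes of mitochondrial transcription 3 were lower in BMDM-labelled WT cells, namely Tfam (-1.41), Tfb2m (-1.22) and the polymerase Polrmt (-0.91). Of 8 tested regulators 2 were higher and 4 lower in WT. Myc, a transcription factor of growth genes, rose by 0.88 and Esrra, a nuclear receptor of mitochondrial genes, by 0.31, and in stimulated KO Myc was 1.16 higher than in stimulated WT. Pprc1, a coactivator of nuclear genes for mitochondria, fell by 1.37 in WT and was 0.95 higher in stimulated KO, and Ppargc1b fell by 1.13. Nrf1, whose motif was searched above, had a value of 0.17 in WT (adjusted p = 0.1) and was 0.78 lower in stimulated KO, while Gabpa, an ETS factor subunit, fell by 0.62 in WT and Yy1 by 0.29. Of the 13 mitochondrial mRNAs 9 were lower and 1 higher in WT (median -0.57), and between the stimulated genotypes 5 were lower in KO and none was higher (median -0.38), the opposite direction to the members. The iNOS KO stimulated library B had 7838 CPM of these mRNAs, against 10779 and 12253 CPM in its group.

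Cytosolic ribosomal protein genes, which build the ribosome outside mitochondria, had larger medians than the members. Of 77 tested, 74 were lower and none higher on stimulation in WT (median -1.38), 31 were higher and 3 lower in iNOS KO (median 0.17), and 72 were higher and none lower in stimulated KO against stimulated WT (median 1.42). Of the 38 nuclear complex I genes 24 were lower and 7 higher in WT (median -0.43) and 23 were higher and 2 lower in stimulated KO (median 0.32), sizes close to those of the members.

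A list of 14 proliferation genes, which mark dividing cells, was lower where most members were lower, but in iNOS KO cells it also fell on stimulation (11 lower and 1 higher, median -0.56) while the members were split. It summed to 3191 to 3226 CPM in unstimulated and 378 to 408 CPM in stimulated BMDM-labelled WT libraries, and to 3159 to 3272 CPM and 2113 to 2330 CPM in iNOS KO. In RAW264.7 cells it went from between 4607 and 5644 CPM to between 181 and 290 CPM over both genotypes. Its part in the members' values was not tested. Macrophage markers summed to 8038 to 8368 CPM and 8191 to 9066 CPM in WT and to 5684 to 6039 CPM and 12590 to 13229 CPM in KO before and after stimulation. These sums are led by Lyz2 and hide single markers that moved in opposite directions. In WT the mean of Lyz2 fell from 5136 to 3677 CPM and that of Csf1r from 958 to 476 CPM. Cd14 rose there from 1095 to 1647 CPM and Adgre1 from 103.5 to 1464 CPM. Mertk and Mrc1 were low, at 0.19 and 4.0 CPM in unstimulated WT. Of 7 neutrophil markers 3 were tested in the BMDM-labelled table, and their sum was at most 1.17 CPM unstimulated and 35.4 to 62.1 CPM stimulated. Nearly all of it was S100a8, at 34.5, 52.5 and 60.9 CPM in stimulated WT and 42.8, 38.6 and 37.2 CPM in stimulated KO. Camp was at most 1.87 CPM and Mpo at most 0.277 CPM in any library. The 7 fibroblast markers summed to 17.1 CPM at most.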

How the data were processed

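RNA of 20 libraries was measured in 2 tables. Per the submitters' processing notes and the methods, the authors used CASAVA for quality control and STAR for alignment to mm10. The counting program, its strand setting and its annotation are not given in the sources used here. The deposited values are raw read counts per gene, whole numbers with no normalization, and no genome build is named in the tables. Here genes with at least 10 counts over a table's libraries were tested in edgeR 4.0.16 (R 4.3.3): TMM scaling, 1 mean per group over all libraries of a table, the quasi-likelihood F test (2-sided) and Benjamini-Hochberg adjustment over all genes tested, called at an adjusted p under 0.05 with no fold limit. Each table gave 5 comparisons. CPM used TMM library sizes, RPKM the table's gene lengths. With 11876719 to 44583327 counts a library, libraries of every group differed by more than counting error (chi-square per degree of freedom of at least 2.65), but counting error is a larger part of the spread for members with few counts (50 at the lowest in a BMDM-labelled library). The script was tested on simulated counts with each table's common dispersion, with 100 genes changed by 0.5 and 100 by 1 on the log2 scale. For stimulation of BMDM-labelled WT cells 66% and 100% of these were recovered. For RAW264.7 WT cells only 0% and 11% were recovered. Of the unchanged genes 9 and 0 were called. In the simulation few genes changed and all had the common dispersion, whereas 37.7% of all genes were called in RAW264.7 WT cells. With few genes changed the adjustment is stricter than in the data, so these shares are not the recovery there. Library groups came from the labels.

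The text names the 10 highest and 10 lowest log2 fold changes among called members for stimulation of WT and for stimulated KO against WT in the BMDM-labelled table, the 5 or 3 highest and lowest for the others, the 3 lowest p-values where none was called, and the members called in opposite directions, plus listed genes. The members and all lists were chosen with earlier results of these data known. Alternatives were DESeq2 1.42.0, other scaling, filters and fold limits, a replicate block and leaving out each library. Letters of libraries were not taken to pair across groups. The motif search used RefSeq promoters of GRCm38.p6.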

Additional observations from a re-analysis of the deposited data

Results flagged for a closer look

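In the BMDM-labelled table the response to stimulation differed between WT and iNOS KO cells for 51 members by the interaction term of edgeR's model (adjusted p under 0.05 over all genes, 35.4% of which were called). The interaction was 1.94 on the log2 scale for Mrps28, 1.45 for Mrpl23, 1.17 for Mrps16, 1.08 for Mrpl15 and 0.98 for Mrpl21, the 5 largest. It was 0.84 for Mrpl40, 0.73 for Mrpl54, 0.68 for Mrps25, 0.64 for Mrpl28 and 0.63 for Mrps33, which with Mrps16 were called lower in WT and higher in iNOS KO. The interaction of these 6 was called with TMM factors, with DESeq2's size factors and with library totals alone. Their rise in iNOS KO was called with the first 2 of these scalings only. The 6 were picked by their opposite calls in the same libraries. A called interaction was thus close to fixed by the choice and is no further support.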

How the results depend on the processing

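With library totals and no TMM factors the median log2 fold change of the members was -0.91 and -0.47 on stimulation of BMDM-labelled WT and iNOS KO cells, 0.51 for stimulated iNOS KO against WT, and -0.73 and -0.83 on stimulation of RAW264.7 WT and Akr1a1 KO cells. Calls on stimulation of iNOS KO cells were then 60, and Mrpl14 (-0.09) and Mrps18a (-0.143) reversed in WT. With a log2 fold change over 1 also required, the BMDM-labelled calls were 10, 3, 0, 3 and 4 (stimulation of WT and KO, KO unstimulated, KO stimulated, interaction) and the RAW264.7 calls on stimulation 10 and 17. With only the groups compared in the fit, 10 members were called in unstimulated iNOS KO and the stimulated KO median was 0.48. For stimulated Akr1a1 KO, 1 member was called by DESeq2's Wald test (Mrpl51, -0.52) and 1 with no filter (Mrps9, -0.59).

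The large against small subunit change, by structural assignment, was 0.203, 0.227, 0.0932 and 0.0953 (BMDM-labelled WT and KO, RAW264.7 WT and KO), and by mean log2 level, chosen after seeing the data, 0.0651, 0.117, 0.00522 and -0.00503, the last reversed.

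Leaving out each library in turn gave, for BMDM-labelled cells in the same order, 54 to 62, 34 to 48, 1 to 9, 50 to 58 and 44 to 55 calls, with medians of -0.472 to -0.423, -0.112 to -0.0312, -0.085 to -0.0578, 0.363 to 0.447 and 0.412 to 0.474. For RAW264.7 cells calls on stimulation were 28 to 40 and 33 to 51 and 0 to 0 in the others, with medians of -0.521 to -0.382, -0.759 to -0.555, -0.0917 to 0.00553, -0.268 to -0.172 and -0.273 to -0.0893. The subunit change ran from 0.101 to 0.123, 0.178 to 0.189, 0.0194 to 0.0747 and 0.0432 to 0.0647.

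Correlations of same-letter libraries' deviations ran from -0.52 to 0.50 and from -0.17 to 0.44, so letters were not taken to pair libraries. Between the states of a RAW264.7 genotype, where a letter may stand for 1 clone, they were 0.438 in WT and 0.103 in Akr1a1 KO. No block by clone within a genotype was fitted. With the letter as a replicate block 58, 39, 2, 54 and 51 members were called in BMDM-labelled and 42, 43, 0, 0 and 0 in RAW264.7 cells. Of the values of named members under all alternatives, 1226 kept their call or lack of a call, 25 lost the call, 2 gained it and 2 reversed. Direction was compared only where a value was called in the main fit or the alternative. The causes were not tested. In RAW264.7 cells 2 libraries a group limit what could be called.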
